A study of Arabidopsis thaliana with 8 samples.

Results

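The cotyledon epidermis of the Arabidopsis embryo is described here by the abundance of its transcripts. It is represented by the 4 libraries that carry the epidermis label among the 8 libraries of the series. All plants were wild-type Col-0 grown without treatment in a greenhouse. The embryos were at a stage named torpedo in the study's results and linear in its methods. Seeds were fixed and embedded in paraffin, and epidermis and mesophyll were cut from sections by laser microdissection. A replicate was made of sections of more than 1 silique taken from a single plant, and harvest dates differed between replicates, as the methods describe it. The labels tie no replicate number to a plant or a date. The 4 mesophyll libraries were made in the same way from the inner tissue of the same organ and serve only as a reference. The tissue was cut as a layer, so a library holds whatever cells lay in or against that layer. Fewer cells of a type and less RNA per cell cannot be told apart in such samples.

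The embryonic epidermis, or protoderm, is the outer cell layer of the embryo. It is laid down early, keeps its identity through the homeodomain factors ATML1 and PDF2, and builds the cuticle, a layer of cutin and wax that seals the embryo from the endosperm around it. At this age the cotyledons are also turning green and beginning to fill with oil and storage protein.

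Levels are given as CPM, read pairs per 1000000 counted pairs of a library. Genes are ranked by level per length, as CPM divided by the length of the gene model in kilobases. Sums over groups and families, and cut-offs of level, are in CPM without this division. Differences from mesophyll are log2 fold changes of epidermis over mesophyll ± SE from edgeR's quasi-likelihood test over 15794 gene models, with Benjamini-Hochberg adjusted p, and a difference is called at 0.05 or less. Over all tested models 0.981% were called higher in the epidermis (155 models) and 0.101% lower (16 models). With a replicate number left out these counts were 55 to 136 and 0 to 16, lowest without number 3 (edgeR, with 616 models lower at an unadjusted p under 0.05 there). In either direction 11.8% of tested models had an unadjusted p under 0.05 in edgeR, and DESeq2 called 8.36%. Left out of every list and rank were 314 of 33602 models, 312 with a long run of A or T and 2 whose level kept a near-constant ratio to the most abundant model. Their pairs made up 9.1% to 17.3% of a library of epidermis and 8.23% to 9.7% of a library of mesophyll. The CPM denominators kept them.

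The 4 epidermis libraries held 27676412 to 36685627 pairs and the mesophyll libraries 28155799 to 33715119. A count of 0 allows a level of up to 3 pairs, which was 0.0818 to 0.108 CPM over the 8 libraries and covers counting error only. Over models chosen by their level in the epidermis, the epidermis libraries resembled each other less than the mesophyll libraries did. The choice acts on the epidermis values themselves, so this is a description only. Over the 11222 models with a mean of 10 CPM or more in the epidermis, the mean correlation of log2(CPM + 1) of an epidermis library with the other 3 was 0.743 for replicate 4, 0.787 for replicate 1, 0.794 for replicate 2 and 0.816 for replicate 3. In mesophyll it was 0.894 to 0.909 over the same models. Pairs from plastid and mitochondrial models were 0.406% of epidermis library 1, against 0.923% to 1.3% in the other epidermis libraries and 1.43% to 1.68% in mesophyll.

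The label was checked with 4 markers of the layer. PDF1, a proline-rich cell wall protein of the protoderm, read 1183, 2278, 1219 and 1210 CPM in epidermis libraries 1 to 4, against 81.5 to 232 CPM in mesophyll. FDH (AT2G26250), listed as KCS10 and needed for elongation of very-long-chain fatty acids, read 330, 431, 199 and 326 CPM against 22.6 to 47.2. PDF2 (AT4G04890) read 223, 356, 182 and 282 CPM against 16.3 to 56.8. ATML1 read 142, 171, 116 and 90.9 CPM against 3.77 to 27.6. The epidermis and mesophyll values did not overlap for any of the 4, and all 4 were called higher, with log2 fold changes of 3.10 ± 0.24 (SE) for PDF1, 3.20 ± 0.19 for FDH, 3.15 ± 0.30 for PDF2 and 3.12 ± 0.47 for ATML1 (adjusted p from edgeR of 0.00201, 0.0015, 0.00377 and 0.0236, n = 4 libraries each). The call on ATML1 was kept in 2 of the 4 fits that left out a replicate number, where its adjusted p rose to 0.133, and the calls on the others in all 4. By level per length the 4 markers were far apart. PDF1 was the model of rank 61 in the epidermis, FDH of rank 820, PDF2 of rank 1438 and ATML1 of rank 2846.

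Markers of neighbouring tissues were present at a lower summed CPM than the 4 epidermis markers. The summed CPM of 12 endosperm genes was 293, 251, 200 and 262 in the epidermis libraries against 18.4 to 71.7 in mesophyll. Of the 6 endosperm genes tested, 5 had an unadjusted p under 0.05 in edgeR (11.8% of all tested models) and 5 were called by DESeq2 (8.36%). The median log2 fold change of the 6 was 5.17, and 1 was called higher by edgeR. Of the 12, 7 had a mean of 1 CPM or more in the epidermis and 5 a mean of 10 CPM or more. PHE1 and WRKY10 (MINI3), regulators of the young endosperm, had no pair in any epidermis library and are named for that reason. The most abundant gene of the endosperm list was SUC5, a sucrose transporter of the endosperm, at 159.5, 204, 99.99 and 107 CPM. ALE1, a subtilisin-like protease of the endosperm that acts on the embryo's surface, read 61.4, 18.21, 56.9 and 43.1 CPM against 0.0346 to 2.98 and was not called (edgeR adjusted p = 0.11). The 12 matched seed coat genes summed to 22.7, 45.0, 50.01 and 65.3 CPM against 7.78 to 18.6. Of these, 5 had a mean of 1 CPM or more in the epidermis and 2 a mean of 10 CPM or more. TT2, TT16 and MYB5, regulators of the coat, had no pair in any epidermis library and are named for that reason. NAC2 (AT3G15510) read 7.11, 17.3, 16.8 and 15.2 CPM against at most 0.0355 in mesophyll and was called higher (edgeR adjusted p = 0.0189). Of the 3 seed coat genes tested, 2 had an unadjusted p under 0.05 in edgeR and 2 were called by DESeq2. Those shares were 11.8% and 8.36% over all tested models, and the median log2 fold change of the 3 was 9.46. The 10 vascular genes summed to 96.8 and 137 CPM in libraries 1 and 2 and to 332 and 335 CPM in libraries 3 and 4, within or below the mesophyll range of 261 to 477 CPM. The part of these tissues in the results that follow was not tested.

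Short stretches upstream of some of the genes described below are shown first, because they hold sequence motifs known to be bound in the classes of gene that make up this transcriptome. The L1 box, TAAATGCA or TAAATGTA, is bound by ATML1 and PDF2. The RY repeat, CATGCATG, is bound by B3 factors of seed maturation such as FUS3. The telo box, AAACCCTA, is common upstream of ribosomal protein genes. Sequence is from the TAIR10.1 assembly, read 5′ to 3′ along the strand of the gene, and the capitals mark the motif on either strand.
KCS10 (FDH), L1 box, chr2:11173314-11173343, minus strand: aaaaattgtaaTAAATGCAaacataagatc
LTPG1, L1 box, chr1:9740230-9740259, plus strand: tatggtatggaTGCATTTAatactcttcct
AT1G71691, L1 box, chr1:26951592-26951621, minus strand: agacggataaaTACATTTAttactcttcac
ABCG11, L1 box, chr1:6142344-6142373, plus strand: ccagactgcatTAAATGTAacaagtaacaa
SESA3, RY repeat, chr4:13611702-13611731, plus strand: acacactcatgCATGCATGcattcttacac
AT5G15200, telo box, chr5:4936430-4936459, minus strand: aagaaagtgagagtgtagcgtTAGGGTTTt
The L1 box of FDH began 54 bases before the annotated gene start and that of LTPG1 267 bases before it. In the 300 bases upstream of the gene start, an L1 box on either strand was found for 24 of the 155 models called higher in the epidermis (15.5%), against 5.4% of tested models outside the A and T runs and 5.45% of all nuclear models. A telo box was found for 56 of 331 ribosomal protein models (16.9%) against 5.51% of all nuclear models, and an RY repeat for 4 of 12 storage and oil body genes against 1.02%. The telo box had a like share upstream of cuticle genes, at 5 of 30 (16.7%). An L1 box was found for 4 of these 30 (13.3%) and for 1 of the 4 epidermis markers, FDH. Among all upstream stretches, 4 held 2 of the motifs in overlap, counting the G box CACGTG as well. These are descriptions of letters and not of binding. ABCG11, which exports cuticular lipids, read 95.0, 192, 122 and 202 CPM against 7.71 to 20.9 in mesophyll and was called higher (log2 fold change 3.52 ± 0.35, edgeR adjusted p = 0.00429).

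The epidermis transcriptome was broad at its top. Between 800 and 942 models held 50% of a library's pairs outside the left-out models, 885 ± 61.0 on average (SD, n = 4), against 729 ± 46.0 in mesophyll. The 10 most abundant models held 4.52 ± 0.43% of pairs against 5.71 ± 0.50%. For both, the exact permutation test (two-sided, 70 arrangements) gave 0.0286, the lowest p it can give. Both depend on which models are left out. With only the 2 models returned that were left out for their proportion to the most abundant model, the p rose to 0.0571 for the first and to 0.286 for the second, whose share was then 5.6%. Counted per kilobase, 520.5 models held 50% (exact permutation p = 0.0571). With all left-out models kept in, 611 models held 50% of the pairs in the epidermis (exact permutation p = 0.886) and the 10 most abundant models held 13.1% (p = 0.143, with the direction turned). A mean of 15166.5 ± 625 models reached 1 CPM in an epidermis library and 15171.5 ± 250.4 in a mesophyll library (exact permutation p = 0.971). In the epidermis 12788 models reached 1 CPM in all 4 libraries, 17403 in at least 1 of them, and 11948 had no pair in any.

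The most abundant transcripts were of photosynthesis, translation, lipid synthesis and oil bodies. CAB1, a chlorophyll a/b binding protein of the light-harvesting antenna, came first at 9830 ± 1546 CPM per kilobase (SD, n = 4). It read 11814, 11224, 9822 and 8192 CPM in libraries 1 to 4, all below the mesophyll range of 14146 to 16777. The difference of -0.58 ± 0.15 on the log2 scale was not called (edgeR adjusted p = 0.134). RBCS1A, the small subunit of Rubisco, came second at 6914 ± 942 CPM per kilobase, with 8070, 7300.4, 7219 and 5757 CPM against 8976 to 10513, and was not called either (log2 fold change -0.42 ± 0.15, edgeR adjusted p = 0.283). CAB3, of rank 23, read 1478 to 2378 CPM against 3596 to 3940 and was called lower (log2 fold change -0.98 ± 0.15, edgeR adjusted p = 0.0236). That call was kept in 0 of the 4 fits that left out a replicate number (adjusted p of 0.0572 to 0.117). CAB1 and CAB3 have near-identical paralogs, and read pairs that matched 2 models equally well were removed by the authors, so their levels are uncertain. The same holds for the histones, elongation factor, aquaporin and 2S albumin genes and for AT5G38170, which have close copies too. In libraries 1 to 4 the 55 models of the light reactions summed to 52759, 45729, 41016 and 34154 CPM, which did not overlap the mesophyll sums of 57181 to 61574.

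Among the 25 most abundant models were 9 counted as cytosolic ribosomal proteins by their description, AT3G06700, a ribosomal L29e family protein worded otherwise, 4 proteins of the light reactions, the elongation factor gene AT5G60390, the ubiquitin and ribosomal fusion genes UBQ1 and UBQ5, and the acyl carrier proteins ACP1 and ACP2, which hold the growing chain in plastid fatty acid synthesis. ACP1 read 1852, 1614, 1432 and 1536 CPM, against 1294 to 1540 in mesophyll. GRP7, a clock-controlled RNA-binding protein of rank 3, read 1705 CPM in library 1 and 3032, 2887 and 2949 in the others. OLEO3, an oleosin that coats oil bodies, was of rank 4 at 2793 ± 943 CPM per kilobase, and its CPM ran from 3001 in library 1 to 1501 in library 4, overlapping mesophyll. Of the 25 models, 23 were also among the 50 most abundant of mesophyll. The lists of 50 most abundant models shared 41 of 50 between the tissues, and 31 models were in the first 50 of every epidermis library.

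**Figure D1:**
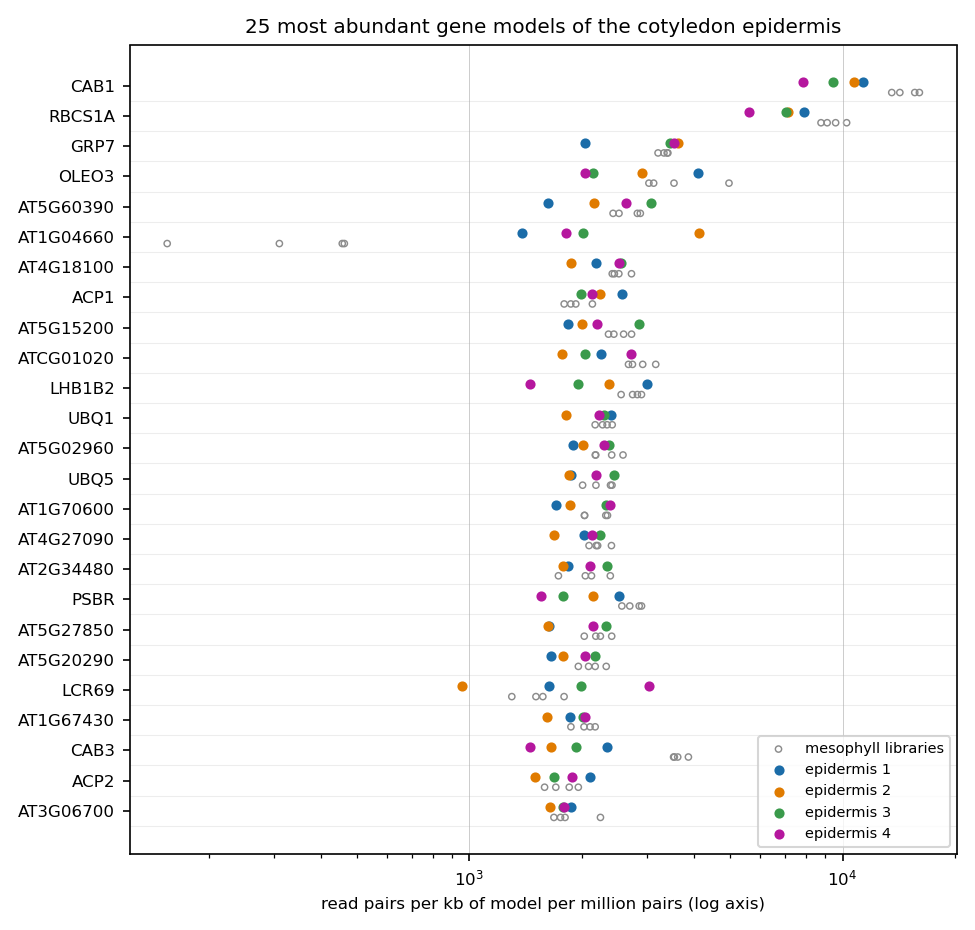
Level of the 25 most abundant gene models of the epidermis, as CPM per kilobase of model on a log axis, in each epidermis library (filled points, coloured by replicate) and each mesophyll library (open points). AT1G04660 is the model whose epidermis points (1779 to 5328 CPM) lie farthest to the right of its mesophyll points (199 to 595 CPM), and GRP7 is low in library 1.

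AT1G04660, which encodes a glycine-rich protein, was the exception in this list. It was of rank 6 in the epidermis and of rank 421 in mesophyll. It read 1779, 5328, 2602 and 2342 CPM in epidermis libraries 1 to 4 and 588, 595, 199 and 399 CPM in the mesophyll libraries, so the groups did not overlap, and library 2 was highest. The gene was called higher (2.79 ± 0.31 on the log2 scale, adjusted p = 0.00557 in edgeR). No fit that left out a replicate number lost the call. LTPG1, a lipid transfer protein anchored at the plasma membrane that exports cuticular lipids, was of rank 36 and read 1397, 1622, 959 and 1026 CPM against 57.4 to 226 (log2 fold change 2.99 ± 0.27, edgeR adjusted p = 0.00307). PDF1 followed at rank 61. Among the 100 most abundant models 5 were called higher (AT1G04660, AT1G47540, LTPG1, MEE26 and PDF1) and 1 lower (CAB3), set against 0.981% and 0.101% of all tested models. AT1G47540 and MEE26 are named here because their calls were seen. The median log2 fold change of the 100 was -0.12, and that of all tested models -0.04. In the first 500, 21 were called higher and 1 lower.

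By function, translation took the largest share of the classes counted. The 331 cytosolic ribosomal protein models took 11.4% of pairs in the epidermis and 12.8% in mesophyll, with library sums of 105803, 99934, 127355 and 124151 CPM in epidermis libraries 1 to 4 against 120108 to 136439. They supplied 42 of the 100 and 154 of the 500 most abundant models. The class rests on wording, so its share is approximate, and it may also hold models that are not cytosolic. It leaves out 38 models worded like AT3G06700 (some of them of the plastid ribosome). These took a further 1.23% of pairs and supplied 7 of the 100 and 21 of the 500. The light reactions took 4.34%, transcription factors 2.01%, transporters 1.92%, translation factors 1.54%, histones 1.1% and tubulins with actins 0.597%. Histones summed to 9793 to 12390.4 CPM against 8624 to 11556, and HTB2, a core histone H2B, was their most abundant member at 954, 1379, 1278 and 1050.4 CPM. SYP111, the syntaxin KNOLLE that builds the cell plate of dividing cells, led the cell division list at 378, 285, 319.6 and 313 CPM, against 363 to 429 in mesophyll.

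The GDSL lipase, cuticle, flavonoid and lipid transfer protein groups held fewer pairs than tubulins with actins. The GDSL lipase, cuticle and flavonoid sums did not overlap mesophyll, and the lipid transfer protein sums did. The 98 GDSL lipase models, a family that includes cutin synthases, summed to 2964, 3892, 2873 and 2723 CPM against 654 to 962. Of 28 tested, 6 were called higher, and the median log2 fold change was 1.39. For this and the later counts of calls in this paragraph, the share over all tested models was 0.981%. AT5G22810 led them at 961, 1335, 789 and 721 CPM against 104 to 180.5, followed per length by AT1G71691 at 1085, 1342, 829 and 828 CPM against 98.5 to 268. The 30 cuticle genes summed to 4303, 5785, 3361 and 3973 CPM against 614 to 1077, and 14 of 21 tested were called higher. DCR, listed as PEL3 and an acyltransferase of cutin synthesis, read 854, 1211, 695 and 788 CPM, and CER10, the enoyl-CoA reductase of fatty acid elongation, read 283, 332, 278 and 279 CPM. The 11 flavonoid genes summed to 1904, 2400.4, 909 and 709 CPM, higher in libraries 1 and 2 than in 3 and 4, against 156 to 395. TT4, the chalcone synthase, read 609, 757, 281 and 183 CPM. The 135 lipid transfer protein models summed to 4748, 2677, 2642 and 3477 CPM against 1873 to 3201, and 6 of 32 tested were called higher. Among them LTP2 read 1249.6, 594, 298 and 289 CPM, while AT5G38170 was highest in library 4, at 386, 156, 294 and 726 CPM. For the light reactions, GDSL lipases, epidermis markers, cuticle, flavonoid, endosperm and seed coat groups the exact permutation test gave its smallest p, 0.0286, which became 0.0816 after Benjamini-Hochberg adjustment over 20 groups. No group sum passed the adjusted threshold.

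**Figure D2:**
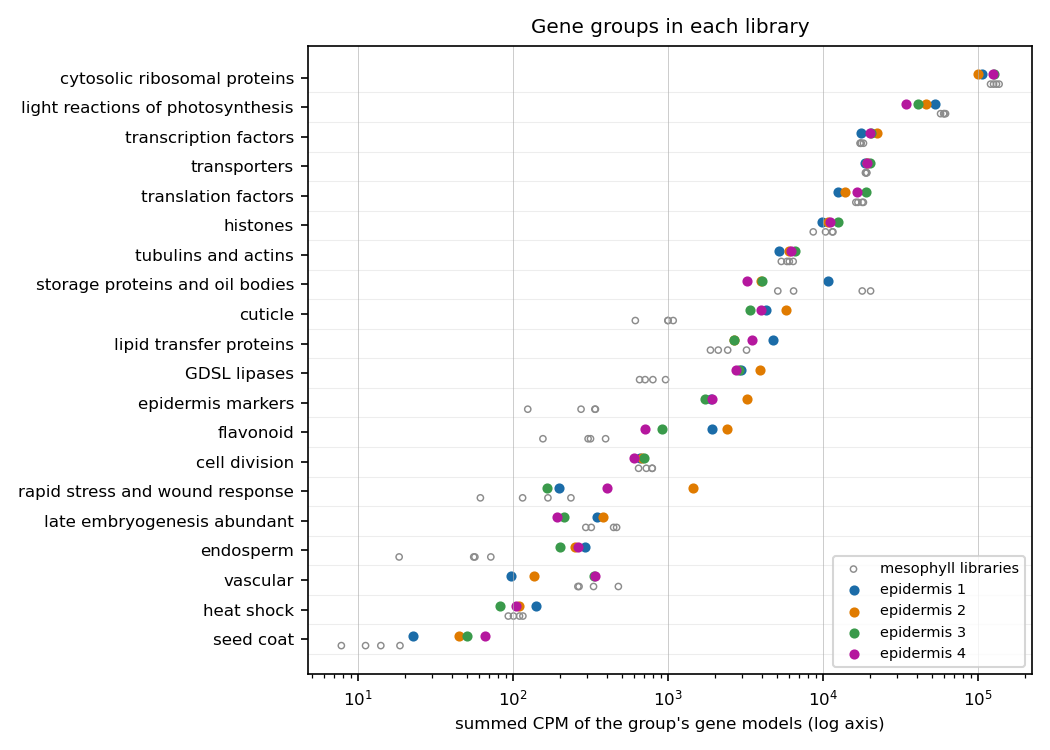
Summed CPM of each gene group on a log axis, in each epidermis library (filled points) and each mesophyll library (open points). The GDSL lipase, cuticle, epidermis marker, flavonoid, endosperm and seed coat groups lie to the right of mesophyll in all 4 libraries. The rapid stress group has 1 epidermis library, replicate 2, far above the rest at 1449.6 CPM.

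Transcription factors were spread over many genes of low level. Of 1538 models whose description held a transcription factor keyword, 507 reached 1 CPM in all 4 epidermis libraries, 435 had a mean of 10 CPM or more, 35 a mean of 100 CPM or more, and 531 had no pair in any. No transcription factor was among the 100 most abundant models and 5 were among the first 500. The most abundant was NF-YB6 (LEC1-LIKE, a CCAAT-binding subunit of seed development), of rank 227, at 818, 646, 398 and 349 CPM in libraries 1 to 4 against 466 to 647 in mesophyll. Its values overlapped those of mesophyll, where it also came first. NF-YC2, which can pair with such a subunit, came next at 379.5, 344, 452 and 556 CPM against 274 to 306. These groups did not overlap, but the difference was not called (log2 fold change 0.58 ± 0.18, edgeR adjusted p = 0.227). They were followed by AGL87, AT3G02790, LBD40 and the S1FA-like genes AT2G37120 and AT3G09735. WRI1, which switches on glycolysis and fatty acid synthesis during oil filling, read 269.9, 306, 248 and 301 CPM, and ICE1, also known as SCREAM and a partner of the stomatal bHLH factors, read 378, 415, 424 and 323 CPM. Both overlapped mesophyll and varied little among the libraries.

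Of the 20 most abundant transcription factors 17 were also among the first 20 of mesophyll, and 2 were called higher. AFO, the abaxial YABBY factor FILAMENTOUS FLOWER, read 162, 123, 195 and 281 CPM against 27.8 to 60.02. It ranked 10th among the factors of the epidermis and 46th in mesophyll, with a difference of 1.98 ± 0.31 on the log2 scale (adjusted p = 0.0265 in edgeR). AT1G49475, a B3 domain protein, read 53.7, 80.8, 73.4 and 181 CPM against 11.4 to 25.1, with a difference of 2.25 ± 0.30 on the log2 scale (adjusted p = 0.0145 in edgeR), and library 4 was highest. The calls held in 1 and in 2 of the 4 fits without a replicate number, in which the adjusted p rose to 0.125 and 0.0841. FUS3, the B3 regulator of seed maturation, came 20th at 138, 213, 119 and 100.3 CPM against 61.2 to 87.9, and its difference of 1.05 ± 0.27 was not called (edgeR adjusted p = 0.14). Set against 0.981% and 0.101% of all tested models, 13 of the 669 transcription factors tested were called higher and 1 lower. Besides those already named these include the HD-ZIP IV factors HDG2 at 31.6 ± 9.997 CPM and HB-7 (AT5G46880) at 50.5 ± 11.5 CPM, EGL3, a bHLH factor of trichome and pigment pathways, at 61.1 ± 21.8 CPM, and MYB4, a repressor of phenylpropanoid genes, at 47.7 ± 14.5 CPM. These 4 are named because their calls were seen, and each call was kept in 1 or 2 of the 4 fits without a replicate number.

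By family keyword in the description, the homeobox group held the most pairs, 3605 ± 518 CPM over 201 models, against 2851 ± 97.5 in mesophyll. Of these models 75 reached 10 CPM. Families were matched on wording and in a fixed order, with homeobox first, so this group can hold models of other families. NF-Y subunits followed at 2058 ± 104 CPM, with 25 of 38 at 10 CPM or more. The 129 bHLH models summed to 1748 ± 169.5 CPM and the 113 B3 models to 1719.9 ± 226 CPM. Most MADS box factors had few or no pairs, with 67 of 116 models at 0 pairs in all 4 libraries and 8 at 10 CPM or more. The AP2/ERF sum ranged widely between libraries, at 916, 2035, 1116 and 1431 CPM, and was highest in library 2. The Dof sum was 75.5 and 84.3 CPM in libraries 1 and 2 and 195 and 132 CPM in libraries 3 and 4.

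Transporters showed the same shape with a few clear exceptions. Of 954 models whose description held a transporter keyword, 386 reached 1 CPM in all 4 epidermis libraries, 327 had a mean of 10 CPM or more and 30 a mean of 100 CPM or more, and 260 had no pair in any. The aquaporin PIP3 of the plasma membrane was the most abundant, at 939, 1012, 1107 and 754 CPM against 989.98 to 1225 in mesophyll. AAC1, the mitochondrial ADP/ATP carrier, came next at 578, 844, 1123 and 1160.5 CPM, followed by CUE1, the phosphoenolpyruvate translocator of the plastid envelope, at 561, 670.3, 551 and 589 CPM. The aquaporins PIP1C and PIP2;8 read lower than in mesophyll without overlap, at 378 to 434 against 640.3 to 696 CPM and at 234 to 381 against 473 to 738 CPM, but neither was called (log2 fold changes -0.66 ± 0.14 and -1.04 ± 0.20, edgeR adjusted p = 0.0837 and 0.0567). The plastid carriers of this list, among them ATNTT2 for ATP, PGLCT for glucose, BASS2 for pyruvate and APE2 for triose phosphate, overlapped mesophyll except ATNTT2.

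Of the 20 most abundant transporters 17 were among the first 20 of mesophyll and 2 were called higher. ABCG15, an ATP-binding cassette transporter, read 335, 456, 293 and 273 CPM against 23.1 to 65.5. It ranked 16th in the epidermis and 102nd in mesophyll, with a difference of 3.03 ± 0.23 on the log2 scale (adjusted p = 0.00201 in edgeR). AtVEX1, a SWEET-type sugar facilitator, read 287, 389, 196 and 194.5 CPM against 26.7 to 69.3, with a difference of 2.30 ± 0.25 on the log2 scale (adjusted p = 0.00548 in edgeR), and ranked 7th against 35th. Both calls were kept in all 4 fits that left out a replicate number. Of all 492 transporters tested 13 were called higher and 1 lower, set against 0.981% and 0.101% of all tested models. SWEET11 at 125.5 ± 61.7 CPM against 1.87 ± 1.14 (33.8 CPM in library 2 and 146 to 165 in the others), the ABC transporter ABCB15 at 67.6 ± 27.3 against 7.44 ± 3.13, and AAP1, an amino acid permease, at 56.8 ± 26.2 against 11.9 ± 6.48 were among those called higher. VIT1, which loads iron into the vacuole, was the one called lower, at 43.6 ± 25.2 against 249 ± 48.0 CPM. These 4 are named because their calls were seen. SUC5 and the phloem sucrose transporter SUC2 were also called higher, SUC2 at 50.9, 48.1, 41.5 and 41.8 CPM against 2.42 to 11.1. SUC5 is also on the endosperm list and SUC2 on the vascular list. Of the fits without a replicate number, all 4 kept the call on ABCB15, 3 that on SWEET11, 2 that on VIT1 and 1 those on AAP1, SUC5 and SUC2.

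**Figure D3:**
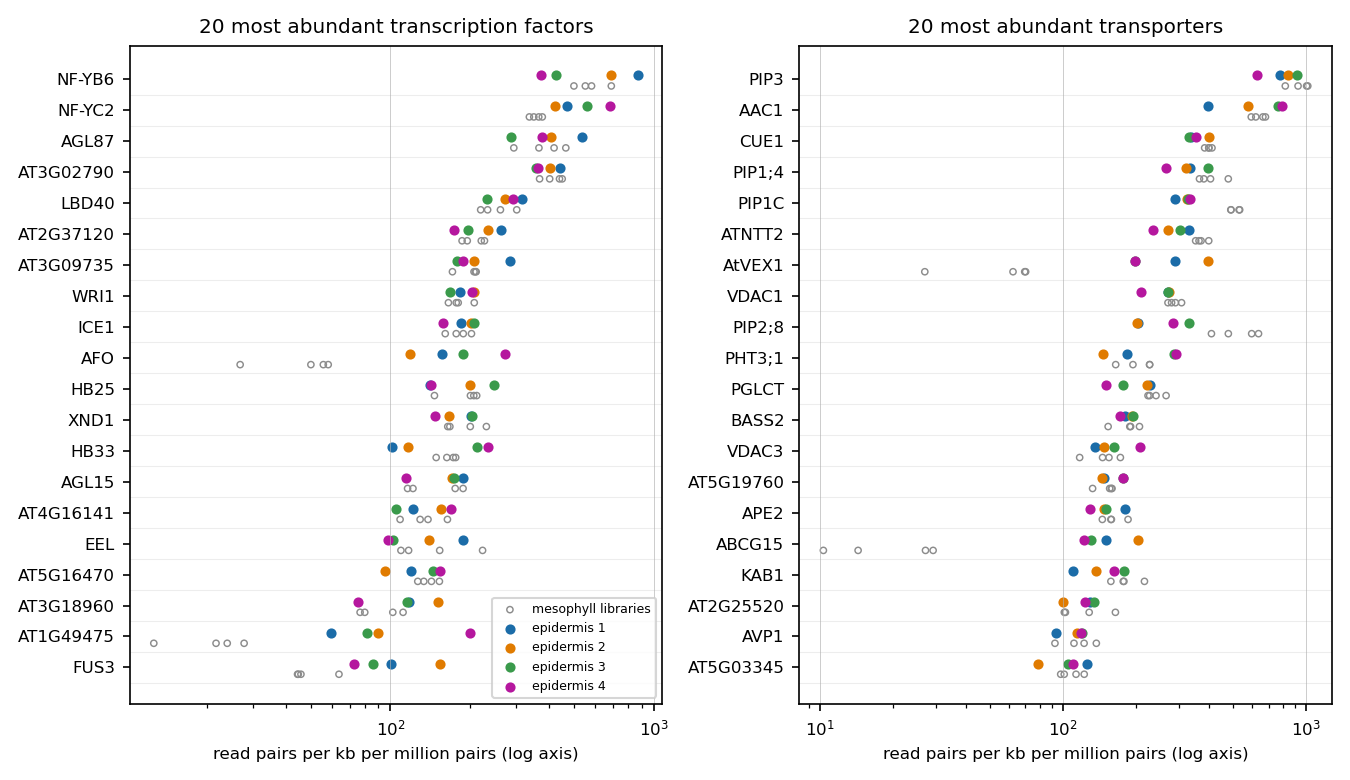
Levels of the 20 most abundant transcription factors (left) and transporters (right) of the epidermis, as CPM per kilobase on a log axis, with epidermis libraries as filled and mesophyll libraries as open points. Most rows overlap between the tissues, while AFO, AT1G49475, AtVEX1 and ABCG15 have all 4 epidermis points well above mesophyll.

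By family, aquaporins summed to 2588 ± 262 CPM against 3593 ± 265, mitochondrial carriers to 2298 ± 406 against 2257 ± 160.1, and ABC transporters to 999 ± 86.7 against 645 ± 19.1. The 16 SWEET models summed to 417 ± 42.2 CPM against 106 ± 20.6, of which AtVEX1 gave 267 ± 92.2.

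The spread among the 4 epidermis libraries was larger than among the mesophyll libraries in each of 4 ranges of level. Over the 11222 models with 10 CPM or more, the median SD of log2(CPM + 1) was 0.51 in the epidermis and 0.37 in mesophyll, and the SD was larger in the epidermis for 7556 models (67.3%). The medians were 0.77 and 0.55 at 10 to 20 CPM, 0.53 and 0.40 at 20 to 50 CPM, 0.36 and 0.26 at 50 to 200 CPM, and 0.24 and 0.15 above that. An SD over 1 was seen for 1633 models in the epidermis and 655 in mesophyll, and an SD under 0.1 for 160 and 464. Models were chosen by their level in the epidermis, and genes are not independent, so these are descriptions with no test. Without epidermis library 4 the epidermis median fell to 0.42, and without library 1 to 0.46.

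**Figure D4:**
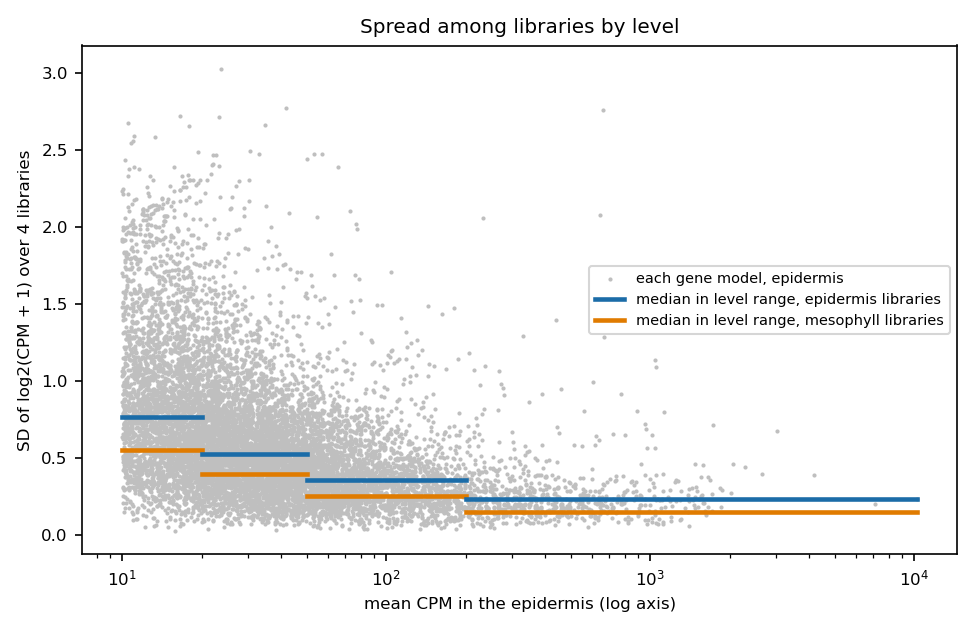
SD of log2(CPM + 1) over the 4 epidermis libraries against the mean CPM in the epidermis on a log axis, 1 point per gene model, with the median SD of the epidermis and mesophyll libraries in 4 ranges of level as horizontal lines. The epidermis line lies above the mesophyll line in each range, at 0.77 against 0.55 in the lowest and 0.24 against 0.15 in the highest.

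The spread also differed between classes. Among members with 10 CPM or more the median SD was 0.20 for histones, 0.23 for tubulins and actins, 0.24 for cytosolic ribosomal proteins and 0.31 for the light reactions. It was 0.59 for transcription factors and 0.61 for transporters, 0.92 for storage proteins and oil bodies, 1.01 for flavonoid genes and 1.72 for the rapid stress and wound list. Classes of higher level also have smaller SDs, as above. The least variable models were RAP74, a subunit of the general transcription factor TFIIF, at 16.0, 16.15, 15.4 and 15.9 CPM, and AT1G72250, DER2.1, HCF243 and AT5G58490.

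The models that varied most fell into a few patterns of libraries. Among the 100 with the largest SD, library 4 was lowest for 50 and highest for 28, library 2 was highest for 34, library 1 was lowest for 32, and library 3 was lowest for 5. Of these 100, 11 carried a transcription factor keyword, 7 of the 92 tested had an unadjusted p under 0.05 against mesophyll, 7 were called by DESeq2 and 0 were called higher by edgeR. Of all tested models, 11.8% had such a p and 8.36% were called by DESeq2. The 3 with the largest SD were PUB19, a stress-related ubiquitin ligase, AT5G51190, an ethylene response factor, and ATCG00480, a plastid gene.

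Library 2 stood out for most of the rapid stress genes named here. PUB19 was an exception, high in libraries 2 and 4 alike at 44.9 and 49.2 CPM, against 0.136 and 0.422 in libraries 1 and 3. AT5G51190 read 158 CPM in library 2 and 1.41 to 4.64 in the others. ERF6, an ethylene response factor, read 0.0273, 76.2, 2.29 and 14.8 CPM, and WRKY33, a factor of wound and pathogen responses, read 1.8, 68, 1.72 and 0 CPM. CYP707A3, which breaks down abscisic acid, read 41.9 CPM in library 2 and at most 0.109 in the others. Other genes known to respond to cold or touch were highest in the same library. CBF2 read 16.2, 228, 20.7 and 38 CPM, DREB1A 0.0273, 49.6, 12.7 and 26 CPM, RHL41 22.1, 98.1, 14.3 and 24.9 CPM, and TCH4 99.1, 467, 38.3 and 116 CPM. The list of 14 rapid stress and wound genes summed to 197, 1449.6, 165 and 401 CPM, against 61.4 to 236 in mesophyll. Of 12 tested, 8 had an unadjusted p under 0.05 (11.8% of all models), 7 were called by DESeq2 (8.36% of all models) and 0 by edgeR.

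Several genes of provascular tissue read higher in libraries 3 and 4 than in libraries 1 and 2. BHLH32, the factor TMO5 of early vascular cells, read 0.0273, 0, 9.95 and 33.1 CPM in libraries 1 to 4, against 4.85 to 16.9 in mesophyll. TMO6, a Dof factor of the same pathway, read 8.45, 2.31, 43.96 and 85.9 CPM against 69.9 to 139. AT4G24060, another Dof factor, read 0, 0, 7.88 and 36.2 CPM against 4.01 to 21.8. AHL22, an AT-hook protein, was also highest in library 4 at 67.7 CPM, with 2.4, 0.181 and 7.28 CPM in libraries 1 to 3. It read at most 0.0346 CPM in mesophyll and, like AT4G24060, is not on the vascular list. Other genes of the vascular list did not follow this order. SUC2 was alike in all 4 libraries, and ATHB-15 (CORONA), a class III homeodomain factor, read 16.03, 67.5, 66.2 and 45.2 CPM.

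Other variable models were near 0 in a single library or stayed below mesophyll in all 4. CRY2, a blue light receptor, read 35.4, 44.5, 42.03 and 0.316 CPM, and AT1G27210 29.3, 56.5, 52.97 and 0.189 CPM, so that both were near 0 in library 4 alone, while mesophyll held 39.04 to 65.1 and 32.2 to 46.4 CPM. ATCG00480 read 18.1 CPM in library 1 and 664 to 1002 in the others, and library 1 also had the lowest share of organelle pairs. SBP2, a selenium-binding protein, read 49.6, 0.434, 0.0703 and 16.2 CPM, below its mesophyll range of 111 to 251. AT3G15680, a zinc finger protein, read 43.2, 1.52, 114 and 69.4 CPM against 181 to 368. A level under 1 CPM in 1 library with 10 CPM or more in the other 3 was seen for 123 of 10122 eligible models in the epidermis, 93 of them in library 4, 26 in library 1, 3 in library 2 and 1 in library 3. In mesophyll it was seen for 23 of 10041. Of the 123, 43 had 10 CPM or more in all 4 mesophyll libraries. The reverse pattern, 20 CPM or more in 1 library and under 1 CPM in the other 3, was seen for 13 models in the epidermis (7 in library 2 and 6 in library 4) and for 0 in mesophyll. Among the 7 of library 2 were ERF13 at 30.4 CPM, WRKY46 at 24.8 CPM and the cell wall enzyme XTH18 at 34.5 CPM, which are named because their values were seen. Libraries started from very little RNA and were amplified without molecular identifiers, and the part of sampling in these patterns was not tested.

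**Figure D5:**
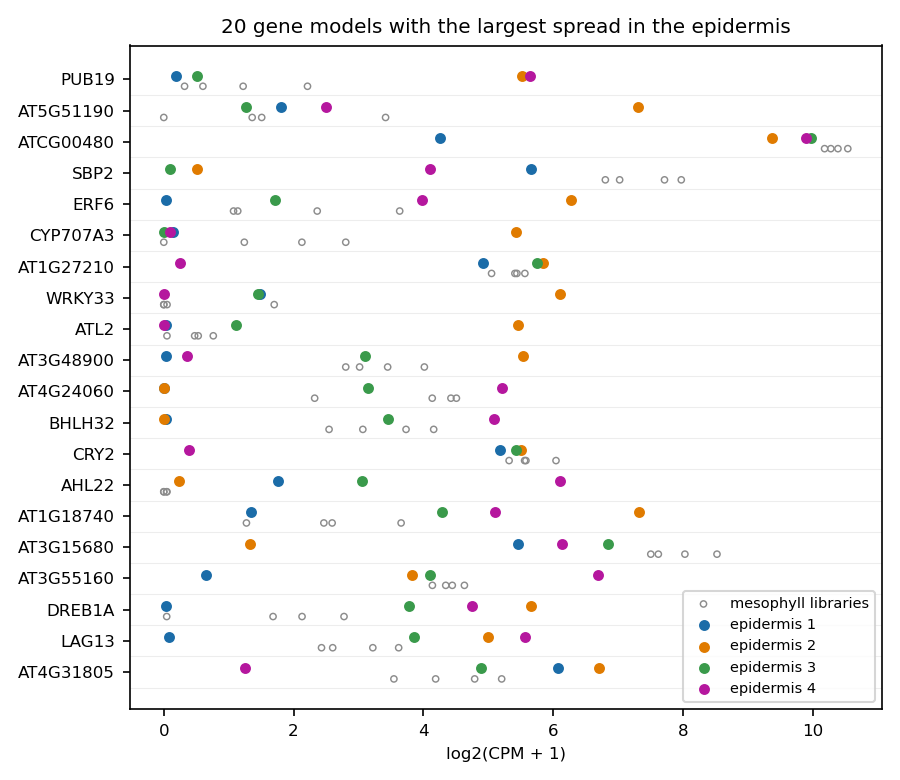
Level of the 20 gene models with the largest spread among the epidermis libraries, as log2(CPM + 1), in each epidermis library (filled points) and each mesophyll library (open points). Library 2 is highest for AT5G51190, ERF6, CYP707A3, WRKY33 and ATL2, library 4 for BHLH32, AT4G24060 and AHL22, and library 4 is near 0 for AT1G27210 and CRY2.

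Storage and oil genes differed among the libraries in yet another way. The 12 genes of storage proteins and oil bodies, a list without OLEO3, summed to 10702 CPM in library 1 and to 3997, 4012 and 3219.5 CPM in libraries 2 to 4. In mesophyll the sums were 5094 to 20215 CPM, so that the tissues overlapped. SESA3, a 2S albumin, read 2404, 400.4, 742 and 656 CPM against 989 to 6095. OLEO1 read 1746, 978, 659 and 689 CPM, and OLEO2 1573, 1179, 687 and 740.5 CPM. Of the 12 genes tested 2 had an unadjusted p under 0.05 and 1 was called by DESeq2, near the 11.8% and 8.36% of all models, and 0 were called by edgeR.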

How the data were processed

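RNA was measured in 4 epidermis and 4 mesophyll libraries, prepared from poly(A) RNA by a SMART-Seq v4 protocol that keeps neither strand nor molecular identifiers. Reads from such PCR products cannot be counted as separate molecules. The authors trimmed reads, took out ribosomal ones (sortMeRNA) and ran Bowtie2 on local settings against representative TAIR10 models before counting with a script of their own. TopHat2 is also listed by the submitters. What they deposited are raw counts of read pairs per model. Pairs with an equally good second match had been removed, which lowers genes with close paralogs. Deposited counts of single reads served only in an alternative, and deposited model lengths gave CPM per kilobase.

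Of 33602 models 32835 matched the TAIR10.1 annotation (RefSeq), the source of names and upstream sequence. Plastid and mitochondrial models kept their identifiers. Models with runs had an ungapped local score of 40 or more for A or T (match 2, mismatch -6) in their exons (312), or had 50 CPM or more and a log2 ratio to the most abundant model with an SD below 0.25 over the 8 libraries (2).

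Models with 1 CPM or more in at least 4 of 8 libraries (15794) were tested by the quasi-likelihood F test of edgeR 4.0.16 (R 4.3.3) with TMM scaling, for tissue with replicate number in the model. The code was tested on simulated data. Values per library were compared by exact permutation. The labels only number the replicates, so p-values measure the spread between these libraries.

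Classes came from keywords in the annotation, widened after their hits were seen, as were families and motifs. From them 65 models were dropped for their wording and 13 by hand: BTF3, H1 histones (AT1G06760, AT2G30620), the heat shock factor binding protein AT4G15802, WLIM1 and WLIM2b as no transcription factors, and SSI2, AT3G02630, AT5G16240, AT4G21105, AT4G20150, AT4G29870 and AT1G61790 as no transporters. PRX36 and SBT1.7 of the seed coat list found no match by name. Members and lists were chosen with earlier results of these data known. Named genes were the 25 most abundant models per length, the 20 most abundant transcription factors and transporters, the 20 most and 5 least variable models of 10 CPM or more, the 3 most abundant members of each group and the 4 markers.

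Alternatives were DESeq2 1.42.0, the likelihood ratio test, other scaling and filters, no replicate term, each replicate left out, models with runs kept in, and other scales for ranks and spread. 1 gene is not reported here.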

Additional observations from a re-analysis of the deposited data

Results flagged for a closer look

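Of 143 sets of 4 epidermis values compared, 10 had 1 library far from the other 3 (a gap, relative to their range, above Dixon's 95% critical value, which chance gives for about 1 set in 20). In library 2 these were the summed epidermis markers at 3237 CPM, PDF1 at 2278 CPM, the GDSL lipase AT5G08460 at 358 CPM and CER10 at 332 CPM, together with the stress genes CBF2 at 228.5 CPM and RHL41 at 98.1 CPM, all higher than in libraries 1, 3 and 4. In library 1 the summed storage and oil body genes at 10702 CPM and SESA3 at 2404 CPM were higher than in the other libraries, and GRP7 at 1705 CPM was lower. In library 4 VDAC1, a porin of the outer mitochondrial membrane, was lower at 256 CPM. PDF1 is part of the epidermis marker sum and SESA3 of the storage sum, so the 10 are not separate results. Whether 10 exceeds the number that chance gives was not tested.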

How the results depend on the processing

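The count of models called higher in the epidermis (155) was 276 with no replicate block, 557 with the likelihood ratio test and 786 with DESeq2, and 55 to 136 when a replicate number was left out, lowest without number 3 and 70 without number 1. The count called lower (16) was 85 with no replicate block, 264 with the likelihood ratio test, 534 with DESeq2, 31 with no low-count filter and 46 with a filter of 10 CPM, and 0 to 16 with a replicate number left out (6 without number 1; 0 in edgeR without number 3, where 616 models were lower at an unadjusted p under 0.05). The labels do not say what a number stands for. Same-numbered libraries showed little common deviation (residual correlations 0.0102, -0.0019, 0.0702 and -0.0102, own number best for 1 of 4), which does not show that they share no source. The number of models holding 50% of pairs (885) was 611 with A and T run models kept in, 850.5 with these defined by sequence alone (exact permutation p = 0.0571) and 520.5 per kilobase (p = 0.0571). The share of the 10 most abundant models (4.52%) was 13.1% with run models kept in, which turned the direction, and 5.6% by sequence alone (exact permutation p = 0.286). At 5 CPM in place of 1, the models detected were 12730.5 in the epidermis (12686.5 in mesophyll), which turned a difference that was not called. Of the 50 most abundant models, 32 were kept when ranked by CPM. Of the 50 most variable, 20 were kept by CV, 5 at a minimum of 50 CPM, and 20 to 41 with an epidermis library left out (33 without library 1, 28 without 2, 20 without 4). No group sum passed the adjusted threshold under TMM scaling or with run models kept in (7 of 20 had an unadjusted p under 0.05). Calls on genes named by rank, group or marker kept their direction under every alternative run. Of these values 28, all with a replicate number left out, were no longer past the threshold. ABCG11 and the genes named because their calls were seen are not in this count. With 4 libraries per tissue, made from very little RNA, levels under about 10 CPM and their differences are poorly fixed, and intervals would cover counting error only.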
